A study of Daphnia magna with 56 samples.

Results

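Gamma irradiation at 10 mGy/h for 4 days was compared with no irradiation in juvenile Daphnia magna, a freshwater crustacean that serves as a standard animal in toxicity testing. The comparison used every day 4 library labelled 10 mGy/h and every day 4 library labelled 0 mGy/h, which were 4 and 4 of the 56 libraries of the study. All 8 libraries were made from whole wild-type females, labelled 4 days old, that had been kept in M7 culture medium in a static system of plastic beakers and, in the exposed group, irradiated from the neonatal stage. At 10 mGy/h the nominal dose accumulated over 4 days was 960 mGy. The other libraries came from animals at 0.4, 1, 4, 40 and 100 mGy/h, and from the same 7 dose rates on day 8. The series title names point-of-departure modelling, that is, finding the dose at which a measured quantity leaves the control level. Neither the number of animals in a library nor whether replicates came from separate cultures is stated in the labels. The p-values below therefore weigh differences against the spread between libraries, which may be in part technical.

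Gamma rays deposit energy along tracks through the whole body of a small animal. They break DNA directly and also split water into reactive oxygen species, which oxidize lipids, proteins and DNA. Daphnia females grow by repeated moults and start to form parthenogenetic eggs as they mature, and the RNA of a young whole animal reflects that development.

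Read counts were available for 23570 RefSeq model transcript records, called transcripts here, of which 9369 had enough counts on day 4 to be tested. Levels are given as CPM, the usual depth-scaled unit of read counts, on library sizes corrected with edgeR's TMM factors. A transcript was called when its p-value from edgeR's quasi-likelihood test, adjusted by the Benjamini-Hochberg method over all 9369, was under 0.05. The test took its estimate of spread from all 28 libraries of the day. The records could be paired with LOC symbols in 14015 cases (59.5%) when record versions were ignored, and in 101 cases when versions had to match. No record could be paired with a description of a product. The called transcripts are therefore given by record and symbol, without a function, and counts by pathway were not made.

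The 8 libraries had similar depth, with totals of 13399048 to 14243541 counts and 10645 to 10715 transcripts detected. No 2 of them held the same counts, and chi-square per degree of freedom was 9.74 or more in all 28 pairs. Totals did differ by group: all 4 libraries at 10 mGy/h had totals of 13992509 or more, as control replicate 3 did, whereas the other 3 controls had totals of 13625826 or fewer. The largest gap among the 28 totals of day 4 lay between 13625826 and 13955640 counts, with 8 libraries above it and 20 below. In a principal component analysis of the 28 libraries, the first component held 50.9% of the variance. The controls lay close together on it, at -32.3 ± 6.24 (mean ± SD, n = 4), and the libraries at 10 mGy/h were spread over higher values, at 7.19 ± 19.3 (n = 4). Every library at 10 mGy/h lay above every control on this axis. The axis did not part irradiated libraries from controls in general. Means at 0.4, 1, 4, 40 and 100 mGy/h were 39.8, -1.15, 19.0, -12.6 and -20.0. Libraries at -40.3 and -40.6 at 1 mGy/h and at -41.3 at 100 mGy/h lay below every control.

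At 10 mGy/h, 38 of the 9369 tested transcripts (0.406%) were called, 23 of them higher (0.245%) and 15 lower (0.160%) than in the controls. Rises were larger than falls in this set: the median log2 fold change was 0.45 among the 23 rises, a 1.37-fold change, and -0.20 among the 15 falls, a 1.15-fold change. The median over all tested transcripts was -0.01. Only 4 called transcripts changed at least 2-fold and 7 at least 1.5-fold, and those 4 were all rises. The 4 exposed libraries lay wholly outside the range of the 4 controls for 36 of the 38, against 735 of all 9369 tested transcripts (7.85%). The calls were made on these same libraries, which favours such separation, so the count is a description. The called transcripts were not at the limit of detection, with mean counts over the 8 libraries from 77.5 to 18089 and a median of 988, against 415 for all tested transcripts. An unadjusted p under 0.05 was reached by 1316 transcripts (14.0%).

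**Figure D1:**
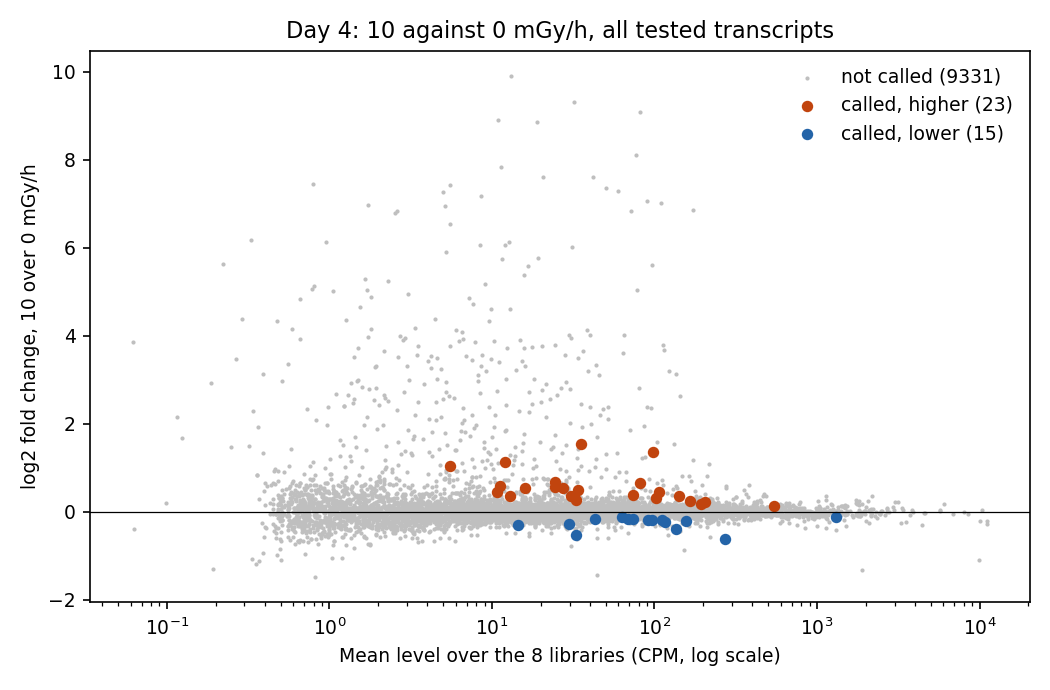
Log2 fold change of 10 over 0 mGy/h on day 4 against the mean level over the 8 libraries (CPM, log scale), 1 point per tested transcript; red points are the 23 called higher, blue points the 15 called lower and grey points those not called. The called transcripts lie at modest fold changes, while many grey points with larger rises stand above them.

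The number of calls depended on the tool, the libraries and the treatment of totals. DESeq2's Wald test called 256, and edgeR fitted to the 8 compared libraries alone called 6. With library totals alone in place of TMM scaling, 24 were higher and 9 lower. Without control replicate 1, 3 or 4, the count was 15, 24 or 10, and without replicate 1 or 4 of the 10 mGy/h group it was 20 or 12. When the class of library total, above or below the gap described above, was added to the model, 2 transcripts were called, and dose rate and class cannot be told apart well because the smaller class held no library at 10 mGy/h and the larger class held 1 control. The log2 fold change of each of the 38 kept its sign in that model.

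The 21 transcripts named by rule, here and in the next paragraphs, had to have groups that did not overlap. Their separation is therefore a condition of the choice and not a result. The largest called rise was that of XM_032925613.1 (LOC116919594). Its level was 16.5, 21.3, 17.6 and 16.8 CPM in control replicates 1 to 4 and 62.5, 39.8, 46.9 and 60.8 CPM at 10 mGy/h. All 4 exposed libraries stood well above all 4 controls, and the exposed libraries differed among themselves more than the controls did. The mean rose from 18.0 ± 2.20 to 52.5 ± 11.0 CPM (SD, n = 4 each), a log2 fold change of 1.54 (SE 0.24) with an edgeR adjusted p of 0.00357. XM_032932441.1 (LOC116925711) was at 54.0, 48.6, 57.3 and 59.3 CPM in the controls and at 151, 144, 112 and 156 CPM at 10 mGy/h. Its controls were nearly level, and the lowest exposed library, replicate 3, was far above the highest control. Its log2 fold change was 1.36 (SE 0.20, adjusted p 0.00220).

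XM_032932645.1 (LOC116925883) had the smallest adjusted p of the comparison. It was at 6.38, 8.75, 8.25 and 6.79 CPM in the controls and at 14.7, 17.5, 15.5 and 17.8 CPM at 10 mGy/h, with no overlap and a similar spread in both groups. The log2 fold change was 1.12 (SE 0.14, adjusted p 0.000418). It was 1 of the 2 transcripts still called when the class of library total was in the model, with an adjusted p of 0.0254. XM_032929901.1 (LOC116923437) completed the transcripts that rose at least 2-fold, from 3.19, 3.02, 4.05 and 4.21 CPM in the controls to 6.82, 6.31, 8.90 and 7.78 CPM. The highest control and the lowest exposed library were apart, and the log2 fold change was 1.04 (SE 0.19, adjusted p 0.0122). XM_032925613.1, XM_032932441.1 and XM_032932645.1 were called whichever of the 8 libraries was left out, while XM_032929901.1 was not called without control replicate 1.

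**Figure D2:**
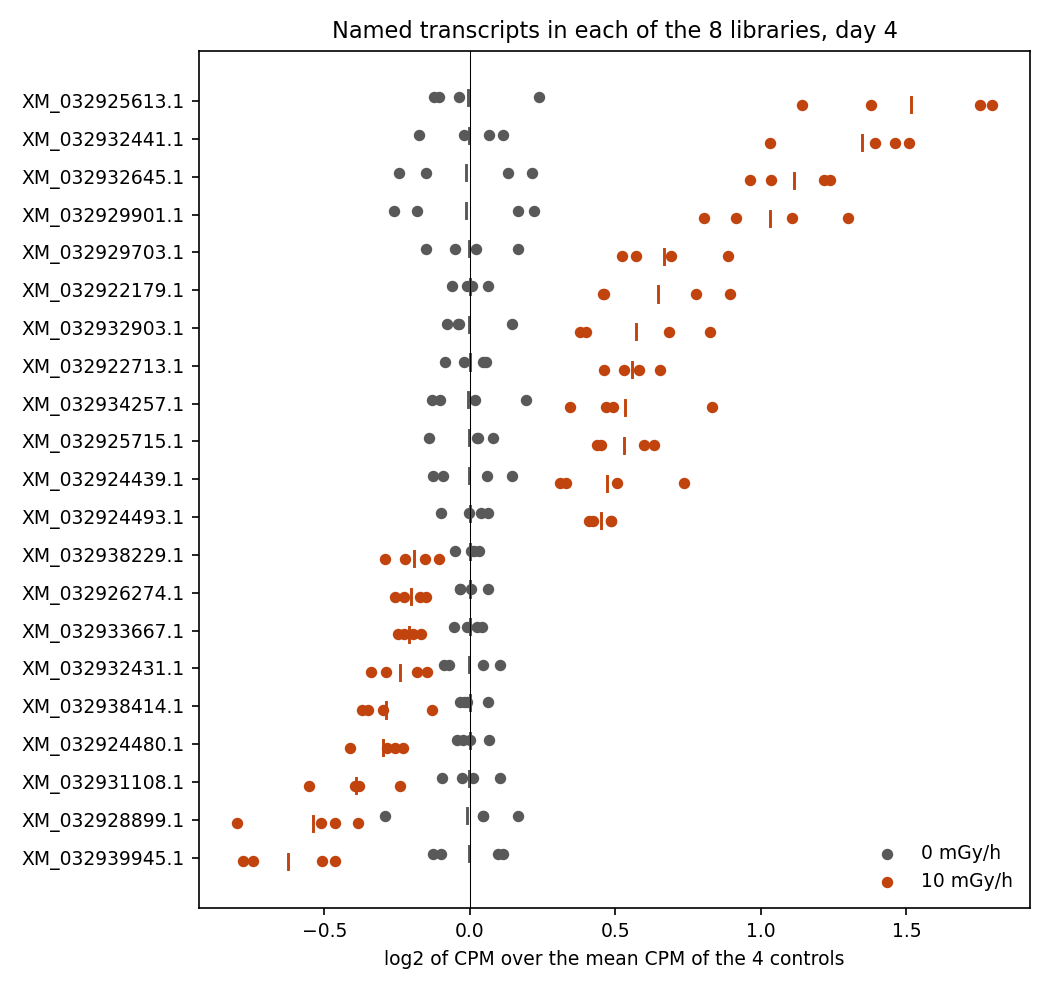
Level of the 21 named transcripts in each of the 8 libraries, as log2 of the CPM over the mean CPM of the 4 controls; grey points are controls, red points are libraries at 10 mGy/h, and vertical bars are group means. By the rule that chose them, the groups do not overlap for any of the 21, and the upper 4 rises stand apart from the rest in size.

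The other 8 named rises were between 1.37-fold and 1.60-fold. XM_032929703.1 (LOC116923228) was at 16.9, 18.1, 21.0 and 19.0 CPM in the controls and at 27.9, 30.3, 34.7 and 27.0 CPM at 10 mGy/h, a log2 fold change of 0.67 (SE 0.12, adjusted p 0.0124). XM_032922179.1, which has no symbol, was at 62.9, 62.3, 65.4 and 60.1 CPM in the controls and at 86.2, 86.1, 107 and 117 CPM at 10 mGy/h. The controls of this transcript were within a narrow band and the exposed libraries fell into a lower and a higher pair. Its log2 fold change was 0.66 (SE 0.13, adjusted p 0.0156). With a library left out, XM_032929703.1 was called in 6 of the 8 fits and XM_032922179.1 in 4. XM_032922713.1 (LOC116917276) was at 19.6, 18.7, 20.6 and 20.5 CPM against 28.6, 27.3, 31.2 and 29.7 CPM, and XM_032925715.1, without a symbol, at 13.3, 13.8, 13.2 and 11.8 CPM against 19.7, 17.6, 20.2 and 17.8 CPM. Both had tight groups that did not overlap. Their log2 fold changes were 0.56 (SE 0.10, adjusted p 0.0122) and 0.53 (SE 0.08, adjusted p 0.00357), and both were called whichever library was left out. XM_032925715.1 was the second transcript called with the class of library total in the model, at an adjusted p of 0.0395. It was not called with the 8 compared libraries alone.

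XM_032932903.1, without a symbol, rose from 8.93 ± 0.644 to 13.4 ± 2.05 CPM (SD, n = 4 each; log2 fold change 0.58, edgeR adjusted p 0.0124). XM_032924439.1 (LOC116918700) rose from 28.3 ± 2.52 to 39.5 ± 5.55 CPM (log2 fold change 0.48, adjusted p 0.0132). XM_032932903.1 and XM_032924439.1 were each called in 5 of the 8 fits with a library left out. XM_032934257.1 (LOC116927224) and XM_032924493.1 (LOC116918748) were at the threshold, both with an adjusted p of 0.0493. The first went from 22.3 ± 2.35 to 32.6 ± 4.92 CPM and the second from 9.14 ± 0.442 to 12.5 ± 0.347 CPM. XM_032934257.1 was called in 1 of the 8 fits with a library left out and XM_032924493.1 in 0. XM_032934257.1 was also lost without a filter on low counts, with the replicate block, with the class of library total, with surrogate variables and with the 8 libraries alone. XM_032924493.1 was lost in the same fits except that with the replicate block, and its log2 fold change of 0.45 became 0.27 with the class of library total in the model.

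The falls were smaller in fold than the rises. XM_032939945.1 (LOC116932163) was at 302, 308, 357 and 353 CPM in the controls and at 239, 232, 197 and 192 CPM at 10 mGy/h. The lowest control stood above the highest exposed library, and both groups split into a lower and a higher pair. The log2 fold change was -0.62 (SE 0.12, edgeR adjusted p 0.0216), and the call was lost without control replicate 3 or 4 and without replicate 3 or 4 of the exposed group. XM_032928899.1, without a symbol, was at 31.7, 40.0, 40.0 and 43.6 CPM in the controls and at 22.3, 28.2, 27.3 and 29.8 CPM at 10 mGy/h. Replicate 1 was the lowest in both groups, and that control came near the highest exposed library without reaching it. Its log2 fold change was -0.53 (SE 0.10, adjusted p 0.0156), and it was called in 5 of the 8 fits with a library left out.

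XM_032931108.1 (LOC116924595) had the smallest adjusted p among the falls. It was at 151, 144, 165 and 155 CPM in the controls and at 117, 130.1, 118 and 105 CPM at 10 mGy/h, with no overlap. Its log2 fold change was -0.39 (SE 0.07, adjusted p 0.00801), and it was the only named fall called in all 8 fits with a library left out. XM_032924480.1 (LOC116918740) fell from 15.9 ± 0.542 to 13.0 ± 0.710 CPM and XM_032938414.1 (LOC116930958) from 32.5 ± 1.00 to 26.7 ± 2.06 CPM (SD, n = 4 each). Their log2 fold changes were -0.30 and -0.28, with edgeR adjusted p-values of 0.0240 and 0.0354. Of the 8 fits with a library left out, XM_032924480.1 was called in 1 and XM_032938414.1 in 2. Both were also lost with the replicate block, with the class of library total and with the 8 libraries alone. In the RefSeq annotation of assembly ASM2063170v1.1, LOC116918740 lies 20 genes from LOC116918700, the gene of a transcript that rose. This was the only pair of called transcripts with a symbol that lay within 20 genes of each other.

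The other 4 named falls were of 1.14-fold to 1.18-fold, with libraries that were close together within each group. XM_032932431.1 (LOC116925673) was at 129.7, 119.6, 118 and 135 CPM in the controls and at 113, 99.2, 111 and 103 CPM at 10 mGy/h, or -0.24 as a log2 fold change (SE 0.04, adjusted p by edgeR 0.0132). XM_032933667.1 (LOC116926731) fell from 169 ± 5.04 to 146 ± 3.52 CPM, XM_032926274.1 (LOC116920185) from 118 ± 3.80 to 103 ± 3.52 CPM and XM_032938229.1, without a symbol, from 103 ± 2.47 to 90.4 ± 5.09 CPM (SD, n = 4 each). Their edgeR adjusted p-values were 0.0122, 0.0169 and 0.0124. Of the 8 fits with a library left out, they were called in 5, 3 and 4, and XM_032932431.1 in 4. For XM_032933667.1, XM_032926274.1 and XM_032938229.1, the highest exposed library was below the lowest control, as the naming rule required.

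The 17 called transcripts outside the naming rule's limits changed less. Of these, 11 were higher, with log2 fold changes from 0.12 to 0.44, and 6 were lower, with log2 fold changes from -0.18 to -0.12. Their adjusted p-values ran from 0.00383 to 0.0493. The one with the highest count, XM_032942583.1 (LOC116935234), was at 1369, 1337, 1367 and 1354 CPM in the controls and at 1238, 1261, 1266 and 1213 CPM at 10 mGy/h, a small fall with no overlap (log2 fold change -0.12, SE 0.02, adjusted p 0.0124). The 2 called transcripts with overlapping libraries, XM_032943795.1 and XM_032932085.1, were also in this set.

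The same transcripts were then read at the other dose rates of day 4. These comparisons share their 4 controls with that at 10 mGy/h, so a control library that is high or low moves all of them together, and the values are set side by side as a description. The lowest dose rate, 0.4 mGy/h, gave calls for 3 of the 38 (0.160% of all tested transcripts were called there). The next, 1 mGy/h, gave 17 of the 38 (0.672% of all), and 4 mGy/h gave 3 (0.0854% of all). Above 10 mGy/h, 6 were called at 40 mGy/h (0.288% of all) and 2 at 100 mGy/h (0.758% of all). These calls had the direction seen at 10 mGy/h, except that 1 of the 2 at 100 mGy/h, XM_032932431.1, was higher there and lower at 10 mGy/h. The median log2 fold change of the 23 rises was 0.21, 0.39, 0.31, 0.26 and 0.11 at these dose rates in the same order, and that of the 15 falls was -0.10, -0.10, -0.07, -0.10 and -0.05. For 18 of the 38, no other dose rate gave a call. The highest group mean of the day was at 10 mGy/h for 16 of the 23 rises, and the lowest was there for 13 of the 15 falls, which the choice of transcripts by their values at 10 mGy/h favours.

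The 4 strongest rises differed in where else they were high. XM_032925613.1 had a mean of 18.0 CPM at 0 mGy/h and 49.7, 31.7, 31.6, 52.5, 33.2 and 21.2 CPM at 0.4, 1, 4, 10, 40 and 100 mGy/h, and was also called at 0.4 mGy/h. XM_032932441.1 was at 54.8 CPM at 0 mGy/h and at 88.6, 126, 79.5, 141, 122 and 55.7 CPM in the same order, and was also called at 1 and 40 mGy/h. XM_032932645.1 was at 7.54 CPM at 0 mGy/h and at 10.4, 17.6, 16.1, 16.4, 12.3 and 10.7 CPM, and was called at 1, 4 and 40 mGy/h as well. None of these had its highest mean at 100 mGy/h, where XM_032932441.1 was within 1 SD of the controls. XM_032929901.1 was at 7.63 ± 1.95 CPM at 0.4 mGy/h and at 7.45 ± 1.14 CPM at 10 mGy/h (SD, n = 4 each), its highest 2 group means, which did not differ beyond their spread. It was also called at 0.4 and 1 mGy/h.

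**Figure D3:**
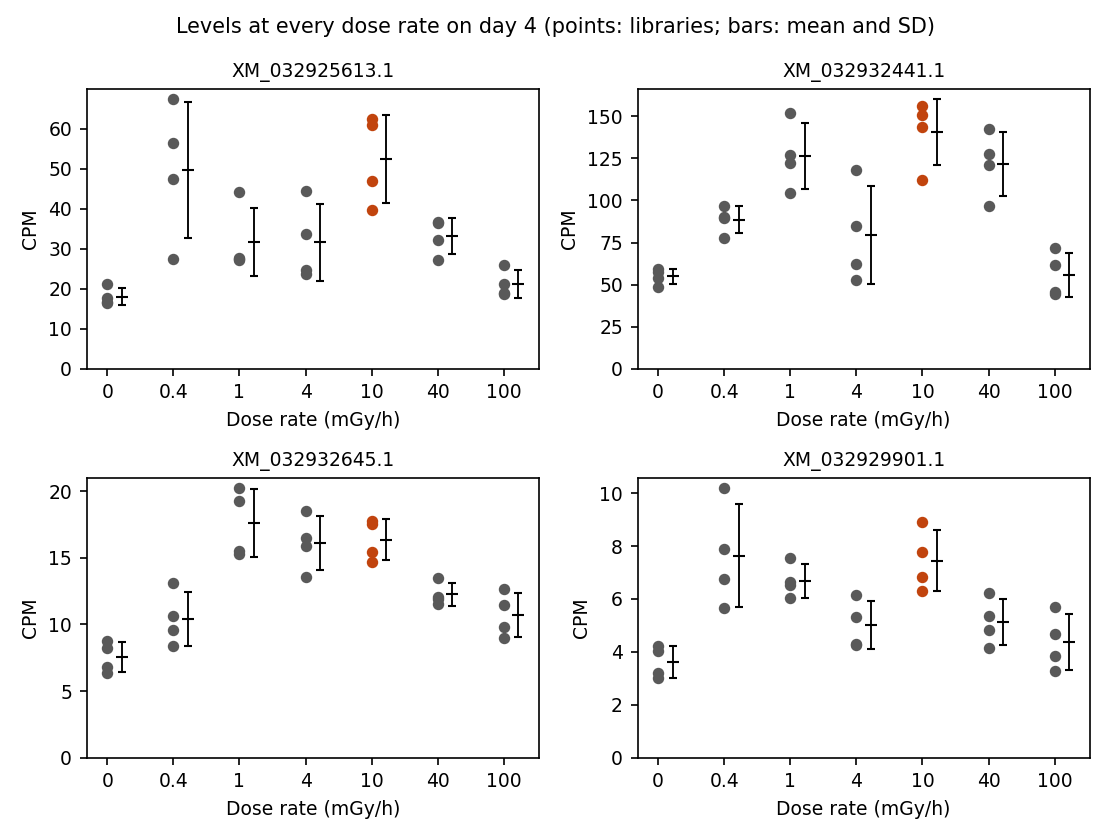
CPM of the 4 transcripts that rose at least 2-fold at 10 mGy/h, at each dose rate of day 4 (mGy/h, evenly spaced); points are libraries, red at 10 mGy/h, and bars are the mean and SD of 4 libraries. Levels at 100 mGy/h are below those at 10 mGy/h in all 4 panels, and for the upper left transcript the mean at 0.4 mGy/h, 49.7 CPM, is near that at 10 mGy/h.

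A direct contrast of 10 mGy/h with the mean of the other 5 irradiated groups, which leaves out the controls, called 2 transcripts (0.0213%), and 887 (9.47%) had an unadjusted p under 0.05. XM_032932431.1, one of the named falls, was lower at 10 mGy/h than in the other irradiated groups by a log2 difference of -0.20 (edgeR adjusted p 0.0470). Its means were 126 CPM at 0 mGy/h and 115, 105, 125, 107, 125 and 146 CPM at 0.4, 1, 4, 10, 40 and 100 mGy/h, so it was low at 1 and 10 mGy/h and, against the controls, called higher at 100 mGy/h (adjusted p 0.0165). The other, XM_032921579.1 (LOC116916360), is named after its values were seen. It was at 19.2, 18.0, 12.4 and 14.0 CPM at 10 mGy/h, overlapping the controls at 19.6, 15.96, 18.3 and 22.2 CPM, whereas the 4 libraries at 1 mGy/h were at 174 to 209.9 CPM. Its log2 difference of -0.87 (SE 0.15, adjusted p 0.0470) thus came with a high group at 1 mGy/h, and against the controls it was not called (log2 fold change -0.26, adjusted p 0.571). The count of 2 was not stable: with single irradiated libraries left out it ran from 0 to 34, the highest without replicate 2 at 40 mGy/h.

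The libraries at 10 mGy/h that chose the 38 also form one side of this contrast, so its values for them are a description. The difference from the other irradiated groups ran from 0.05 to 0.70 on the log2 scale among the rises, with a median of 0.17, and from -0.32 to -0.04 among the falls, with a median of -0.12. XM_032925613.1 and XM_032932441.1 had the largest, 0.70 and 0.64, and neither passed the threshold (edgeR adjusted p 0.0923 and 0.0781).

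Day 8 gave the same contrast in libraries, controls included, that day 4 did not use. At 10 mGy/h on day 8, 1 of 9367 tested transcripts (0.0107%) was called and 251 (2.68%) had an unadjusted p under 0.05. That transcript, XM_032940429.1 (LOC116932654), was at 11.0, 13.4, 15.0 and 12.9 CPM in the day 8 controls and at 21.9, 20.4, 21.2 and 21.2 CPM at 10 mGy/h. These groups were clearly apart. The log2 fold change was 0.69, with an SE of 0.09 and an adjusted p from edgeR of 0.00192. On day 4 the same transcript was at 12.5, 16.3, 13.4 and 14.0 CPM in the controls and at 17.2, 17.4, 19.1 and 15.7 CPM at 10 mGy/h, groups that overlapped (log2 fold change 0.30, SE 0.10, adjusted p 0.180). On day 4 it was called against the controls at 40 and 100 mGy/h, with means of 26.7 ± 1.06 and 45.0 ± 4.06 CPM (SD, n = 4 each).

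All 38 transcripts called on day 4 were tested on day 8, and none was called there. Their log2 fold changes had the same sign on both days in 27 cases (71.1%), against 57.7% of the 9202 transcripts tested on both. The 23 rises had a median day 8 log2 fold change of 0.09, with 19 above 0, and the 15 falls a median of -0.01, with 8 below 0. Over all transcripts tested on day 8 the median was 0.01, and 53.7% were above 0. The fitted difference of day 8 minus day 4 was below 0 for 22 of the 23 rises and above 0 for 13 of the 15 falls. Since these were selected on day 4, this count carries no test of a difference between the days.

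4 of the 38 had an unadjusted edgeR p under 0.05 on day 8, each in the direction of day 4. They were picked by that p, so the exact p-values below come from the same day 8 values and add no support to it. XM_032925613.1, the largest rise of day 4, was at 10.1, 15.0, 7.20 and 15.4 CPM in the day 8 controls and at 36.1, 53.2, 38.3 and 18.9 CPM at 10 mGy/h. The groups did not overlap, replicate 4 at 10 mGy/h came nearest to the controls, and the difference of mean log2 CPM was 1.58 (exact permutation test, 2-sided, p = 0.0286, the smallest that 4 against 4 allows). XM_032932441.1 was at 115, 218, 156 and 163 CPM in the day 8 controls and at 345, 604, 295 and 190.1 CPM at 10 mGy/h. Here replicate 4 at 10 mGy/h fell below control replicate 2, and the difference of 1.05 had an exact permutation p of 0.0571. For XM_032922179.1 and XM_032928899.1 the differences were 0.47 and -0.41, with exact permutation p-values of 0.0857 and 0.114. These 4 p-values are not adjusted for the number of transcripts read on day 8, and edgeR's adjusted p for XM_032925613.1 on day 8, over all tested transcripts, was 0.997.

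**Figure D4:**
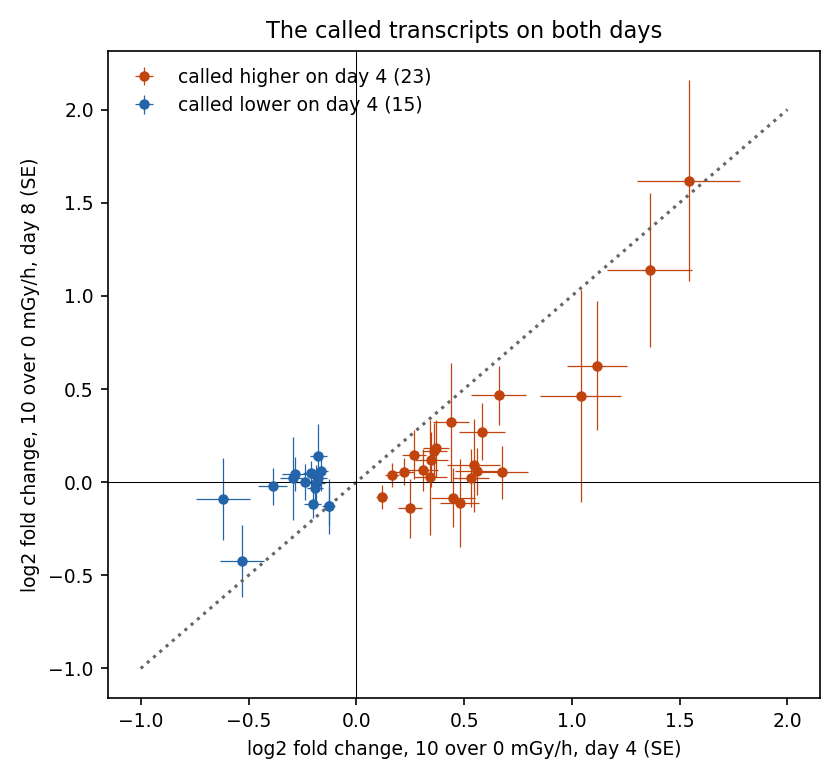
Log2 fold change of 10 over 0 mGy/h on day 8 against that on day 4 for the 38 transcripts called on day 4 (red higher, blue lower); bars are standard errors from edgeR and the dotted line marks equal values. Most points lie near 0 on the day 8 axis, and the 2 largest rises, at 1.54 and 1.36 on day 4, lie near the dotted line at 1.62 and 1.14.

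The difference between days was also tested itself, as the interaction of dose rate and day in the 16 libraries at 0 and 10 mGy/h. edgeR called 0 of 9343 transcripts, with 457 (4.89%) at an unadjusted p under 0.05 and a smallest adjusted p of 0.454, whereas DESeq2 called 41. Among the 38, the log2 difference of day 8 minus day 4 ran from -0.64 to 0.51, with a smallest edgeR adjusted p of 0.771. In simulated data, the edgeR test recovered 53 of 100 differences of 2-fold that had been put in, and 0 of 100 smaller ones. Only 4 of the 38 changed at least 2-fold on day 4. The 0 calls therefore cannot show that the effect of 10 mGy/h was the same on both days.

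Many larger differences did not pass the test. Of the 8637 tested transcripts that averaged 20 counts or more across the 8 libraries, 262 had a fitted difference of at least 2-fold without being called, 259 higher and 3 lower at 10 mGy/h. These were chosen by the contrast itself, so their direction is a description. The 259 varied between replicates: the median SD of log2 CPM was 1.81 among the libraries at 10 mGy/h and 0.553 among the controls, against 0.106 and 0.0992 over all tested transcripts. Exposed and control libraries were apart for 73 of the 259, against 735 of all 9369 (7.85%), and DESeq2 called 68 of the 259 and 256 of all 9369. Nothing is read from these counts, since the same contrast chose the 259, and edgeR's adjusted p-values for them began at 0.0631.

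The summed level of the 259 shows how unequal the libraries were. It was 1184, 1802, 1405 and 2521 CPM in the controls and 7839, 9168, 3168 and 19551 CPM at 10 mGy/h. Every exposed library was above every control, which the choice of the 259 by these same libraries favours. Among the exposed libraries, replicate 4 was far above the others and replicate 3 nearest to the controls. The highest of the 4 exposed libraries was replicate 4 for 160 of the 259 and replicate 2 for 94. As these are whole animals, more cells of a type and more RNA per cell cannot be told apart. The sum also varied between replicates elsewhere: at 1 mGy/h it was 1112, 1141, 15882 and 15872 CPM, so 2 libraries were below all controls and 2 between replicates 2 and 4 at 10 mGy/h. At 0.4 mGy/h it ran from 10234 to 33197 CPM and at 100 mGy/h from 1081 to 8081 CPM. The 3 libraries with large totals at 40 and 100 mGy/h were at 1612.5, 2507 and 3659 CPM, and the part of library total in the sum was not tested. On day 8, every library of the study had a higher sum than every day 4 control. The day 8 sum was 22915 to 47349 CPM at 0 mGy/h and 28012 to 55452 CPM at 10 mGy/h. Counts of each day were filtered and scaled separately, so sums of different days are compared only roughly.

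**Figure D5:**
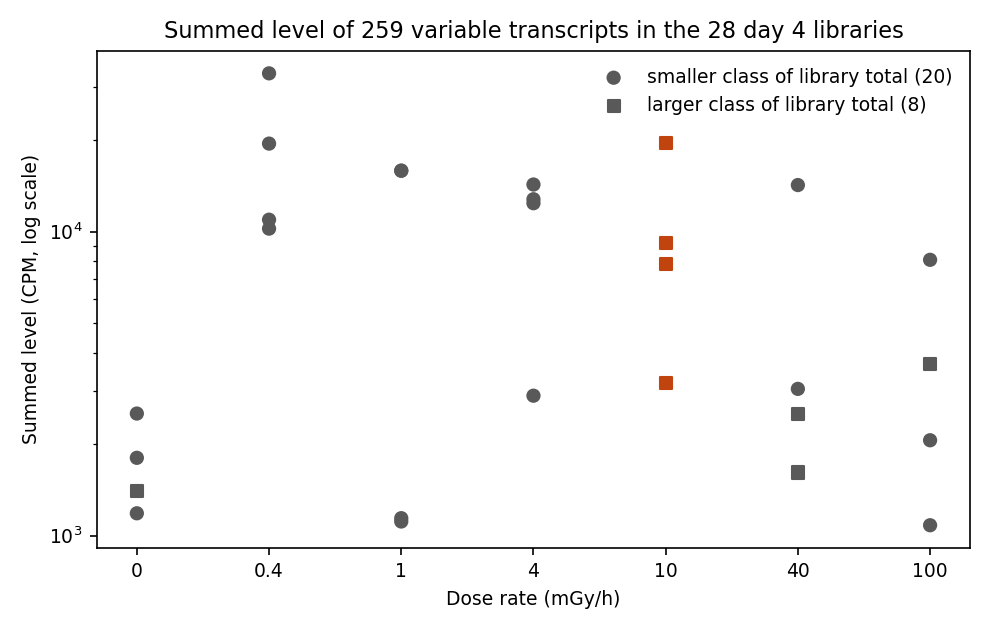
Summed level (CPM, log scale) of the 259 transcripts with a fitted rise of at least 2-fold at 10 mGy/h that were not called, in each of the 28 libraries of day 4 by dose rate; squares are the 8 libraries with larger totals, circles the other 20, and red marks 10 mGy/h. The controls lie between 1184 and 2521 CPM, while the libraries at 1, 4 and 40 mGy/h include both low and high values.

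The 3 with the largest fitted rises, named after their values were seen, were nearly silent in the controls. XM_032920621.1 had 0, 0, 1 and 0 counts in the controls and 96, 53, 4 and 1322 at 10 mGy/h. XM_032920631.1 had 1, 3, 0 and 1 counts against 576, 28, 9 and 2953, and XM_032920626.1 (LOC116915470) had 2, 1, 0 and 13 against 622, 93, 23 and 8372. In all 3, replicate 4 of the exposed group was the highest and replicate 3 the lowest. edgeR's adjusted p-values were 0.191, 0.187 and 0.171, and DESeq2's were 0.000426, 0.00269 and 0.000654. None of the 3 was highest at 10 mGy/h. Their means at 0.4, 4 and 10 mGy/h were 128, 69.2 and 26.3 CPM, 164, 87.0 and 63.5 CPM, and 773, 378 and 162 CPM. Libraries of other groups were also unequal: XM_032920626.1 was at 0.369, 0, 486 and 370 CPM at 1 mGy/h.

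The 3 falls of at least 2-fold that were not called by edgeR, also named after their values were seen, had less unequal replicates. XM_032923507.1, without a symbol, was at 14154, 10682, 17620 and 11839 CPM in the controls and at 7414, 4030, 7746 and 6041 CPM at 10 mGy/h. The groups did not overlap, and the log2 fold change was -1.11 (SE 0.27, edgeR adjusted p 0.0649, DESeq2 adjusted p 0.00841). XM_032921847.1 (LOC116916592) was at 2691 ± 469 CPM against 1077 ± 377 CPM and XM_032936030.1 (LOC116928890) at 64.5 ± 10.1 CPM against 23.6 ± 11.6 CPM (SD, n = 4 each). Their log2 fold changes were -1.32 and -1.45, with edgeR adjusted p-values of 0.0649 and 0.0912. At 100 mGy/h the means of all 3 were above those of the controls, at 20490 CPM for XM_032923507.1, 3920 CPM for XM_032921847.1 and 110.2 CPM for XM_032936030.1. None was called there (edgeR adjusted p 0.469, 0.661 and 0.538 in that order), and libraries of XM_032923507.1 and XM_032921847.1 overlapped the controls. At 0.4, 1, 4 and 40 mGy/h the means of all 3 were below those of the controls. XM_032921847.1, at 1001 CPM at 1 mGy/h, was called lower there (edgeR adjusted p 0.0351).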

How the data were processed

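RNA of whole Daphnia magna was sequenced from fragmented mRNA, read in pairs on a DNA nanoball platform, per the labels' protocols. The values used were the whole-number read counts per RefSeq transcript record that the authors deposited, without normalization, in a table for each day. HISAT is listed in the submitters' processing notes. Its version, the counting program, the genome build, the use of strand and the handling of reads shared between records are not given in the sources used here. Records of similar or overlapping genes may therefore have shared reads. All sample columns were matched to a library by its label, with 0 left over.

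The tests were run with edgeR 4.0.16 under R 4.3.3 (filterByExpr, TMM, glmQLFit, glmQLFTest, 2-sided, Benjamini-Hochberg), with a coefficient per dose rate and all 28 day 4 libraries in the fit. A standard error was obtained by dividing each log2 fold change by √F. Log2 CPM used a prior count of 2. Day 8 was fitted likewise, and the difference between days in the 16 libraries at 0 and 10 mGy/h. Alternatives used DESeq2 1.42.0, sva 3.50.0, other scalings, covariates and library sets. The models were tested on simulated data.

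Named transcripts were those called that averaged 20 counts or more across the 8 libraries and did not overlap between groups: the 12 largest rises, the 8 largest falls and the 3 with the smallest adjusted p per direction, or those also called against the other irradiated groups. This gave 12 rises and 9 falls. The members, lists and tests were chosen with earlier results of these data known. Gene lists for DNA repair, antioxidant defence and similar groups were planned but not counted, since no product descriptions were used here.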

Additional observations from a re-analysis of the deposited data

Results flagged for a closer look

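Dixon's ratio, the gap of the most distant library to its nearest neighbour over the range of its group of 4, was computed for 60 groups of 4 libraries at 0 or 10 mGy/h. In 4 groups it was above Dixon's 95% critical value for groups of 4. For independent and normally distributed values, chance alone gives about 1 in 20 groups, or 3.0 of 60. Levels of nearly silent transcripts do not meet that condition, so no conclusion is drawn from the 2 numbers. All 4 belonged to transcripts that were nearly silent in the controls and not called. For XM_032920621.1 the ratio was 1 in the controls, where replicate 3 held 0.0711 CPM from a single count and the others 0. At 10 mGy/h its ratio was 0.931, with replicate 4 at 94.4 CPM and the others at 0.282 to 6.75 CPM. For XM_032920626.1 the ratio was 0.846 in the controls, with replicate 4 at 0.960 CPM and the others at 0 to 0.148 CPM. At 10 mGy/h its ratio was 0.929, with replicate 4 at 598 CPM and the others at 1.62 to 43.8 CPM.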

How the results depend on the processing

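The 38 calls against the controls became 256 with DESeq2 (164 higher, 92 lower), 24 with the replicate block, 2 with the class of library total as a covariate and 6 with the 8 compared libraries alone. With single libraries left out they ran from 10 to 43. With other size factors, library totals, no filter on low counts, surrogate variables or counts summed per symbol they were between 28 and 38. The sign of each of the 38 was kept in all of these fits. Of the 21 named transcripts, 19 were no longer called with the class of library total and 17 with the 8 libraries alone. For those alternatives the cause was not tested. The 2 calls against the other irradiated groups became 10 with DESeq2's size factors, 5 with library totals, 13 without a filter, 82 with DESeq2, 0 with the replicate block, 0 with the class of library total and 9 with surrogate variables, and ran from 0 to 34 with a library left out. The 0 calls for the difference between days became 41 with DESeq2 (10 higher, 31 lower) and 0 with the replicate block within the day, and ran from 0 to 1 with a library left out.

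Same-numbered libraries did not resemble each other in their deviations from the group means. The correlation ran from -0.317 to -0.00542 over 4 pairs, and 0 libraries correlated best with their own number. With 4 pairs it cannot show whether same-numbered libraries shared a culture, which the labels do not state. Counts of a few reads per library, as for the nearly silent transcripts, leave their levels uncertain. With 4 libraries a group, a single-value exact test cannot give a p below 0.0286.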
